A study of Mus musculus with 3 samples.

Results

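The genes examined here make up the mouse pathway that presents peptides on major histocompatibility complex (MHC) class I molecules. They are B2m, H2-D1, H2-K1, Tap1, Tap2, Tapbp, Psmb8, Psmb9 and Psmb10, and they were chosen by name, as all probe sets whose annotation gives 1 of these symbols and no other. That rule found 26 probe sets for the 9 genes, among 34958 probe sets for 18194 genes on the array. The samples were parietal cells, zymogenic cells and pit cells of the mouse stomach, each hybridised to 1 Affymetrix Mouse Genome 430 2.0 array. Parietal cells secrete acid, zymogenic (chief) cells secrete digestive enzymes, and pit cells are the mucous cells of the upper gastric unit. No strain, age, genotype or treatment is given in the labels. Per the design text, each lineage was cut out by laser from tissue sections of 4 to 5 mice, 3000 to 5000 cells were taken per lineage, and their RNA was pooled before amplification, so that each array is a pool of animals with no replicate. Parietal and pit cells were taken from the same gastric units, and zymogenic cells from other slides, so that the zymogenic lineage and its slides cannot be told apart.

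Class I molecules sit on the surface of nearly all nucleated cells and show fragments of the cell's own proteins to cytotoxic T cells. A heavy chain (H2-K1 and H2-D1 in the mouse) pairs with the light chain beta-2-microglobulin (B2m) in the endoplasmic reticulum. Peptides are cut in the cytosol by the proteasome, are pumped into the endoplasmic reticulum by the transporter made of Tap1 and Tap2, and are loaded with the help of tapasin (Tapbp). Psmb8, Psmb9 and Psmb10 are catalytic subunits that replace the constitutive ones in the immunoproteasome. Interferons are textbook inducers of all of these genes. In the RefSeq gene order, Psmb9, Tap1, Psmb8 and Tap2 are direct neighbours in the MHC of chromosome 17, which also holds Tapbp, H2-K1 and H2-D1. B2m lies on chromosome 2 and Psmb10 on chromosome 8.

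The promoters of the light chain and both heavy chains are shown because the values given further on turn most on B2m and H2-K1 and because H2-K1 and H2-D1 share much of this sequence. They come from RefSeq (build GRCm38.p6), run 5′ to 3′ on the strand of the gene, and reach from 250 bases before the annotated start to 50 after it. Capitals mark matches to the interferon and kappaB motifs given after the sequences. B2m is read from chr2:122147437-122147736 (plus strand), H2-K1 from chr17:34000284-34000583 (minus strand) and H2-D1 from chr17:35262844-35263143 (plus strand).
B2m: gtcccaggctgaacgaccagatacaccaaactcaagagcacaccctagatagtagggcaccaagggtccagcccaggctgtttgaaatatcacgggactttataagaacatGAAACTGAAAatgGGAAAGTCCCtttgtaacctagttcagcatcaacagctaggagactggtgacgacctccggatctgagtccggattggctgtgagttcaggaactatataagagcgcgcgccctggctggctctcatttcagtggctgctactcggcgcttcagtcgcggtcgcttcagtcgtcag
H2-K1: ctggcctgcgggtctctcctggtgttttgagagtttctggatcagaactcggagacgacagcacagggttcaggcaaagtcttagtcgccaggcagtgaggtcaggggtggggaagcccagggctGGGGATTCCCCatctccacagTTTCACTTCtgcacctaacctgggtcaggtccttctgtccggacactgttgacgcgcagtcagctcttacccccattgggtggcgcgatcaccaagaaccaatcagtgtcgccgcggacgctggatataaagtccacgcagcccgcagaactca
H2-D1: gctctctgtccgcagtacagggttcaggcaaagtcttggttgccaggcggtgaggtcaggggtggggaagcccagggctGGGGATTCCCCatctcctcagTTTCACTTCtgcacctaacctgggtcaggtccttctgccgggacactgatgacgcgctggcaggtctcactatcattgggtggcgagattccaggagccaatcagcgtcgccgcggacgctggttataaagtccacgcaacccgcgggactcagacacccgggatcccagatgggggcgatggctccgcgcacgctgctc

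In B2m the capitals hold a match to the interferon-stimulated response element (ISRE), searched as GAAA, any 2 bases and a further GAAA, from 139 to 130 bases before the start. A kappaB consensus match, the kind of site that NF-kappaB proteins bind, lies beside it from 126 to 117 bases before the start. In H2-K1 and H2-D1 the kappaB match comes first, where overlapping matches on both strands form the palindrome GGGGATTCCCC. It is followed by a shorter form of the response element, searched as GAANNGAAA and found on the opposite strand. The H2-K1 and H2-D1 windows aligned over 242 columns with 217 identical bases (89.7%). H2-K1 has a second annotated start, offset by 14 bases, whose window holds the same matches.

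Of the 9 genes, 8 have a promoter entry, and the motifs were searched on both strands. The ISRE was found in 1 of the 8 (B2m) and in 3.43% of 32817 promoter windows of that length, and the shorter form in 2 of 8 (H2-D1 and H2-K1) and in 7.52% of windows. The kappaB consensus was found in B2m, H2-D1 and H2-K1, 3 of 8, against 4.5% of windows. The STAT site called GAS, searched as TTCNNNGAA, was found in Psmb8 alone and in 8.29% of windows. The core of the cyclic AMP response element, TGACG, was found in 5 of 8 (B2m, H2-D1, H2-K1, Tap1 and Psmb9) and in 20.8% of windows, and the box CCAAT in 6 of 8 and in 37.4%. The Tap1 and Psmb9 windows are not independent, since these genes are read in opposite directions from a shared stretch and the windows overlap by 275 bases. Psmb10 had none of these matches. A match of letters is a description and does not show that a factor binds.

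**Figure D1:**
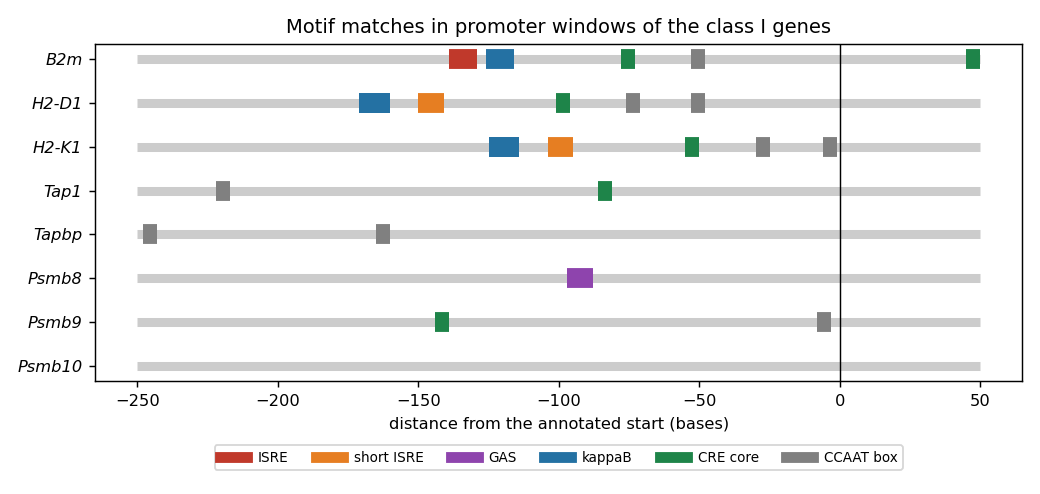
Motif matches in the promoter windows of 8 class I genes, drawn as coloured blocks on a grey bar against the distance in bases from the annotated start (vertical line). The kappaB block lies next to an ISRE in B2m and next to the shorter form in H2-D1 and H2-K1, and the Psmb10 bar is empty.

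Intensities are given on the linear scale of the deposited values, in arbitrary units, always with the array they belong to. Values were read against a detection floor of 23.3. To set it, the 95th percentile of 78 olfactory and vomeronasal receptor probe sets was taken on each array and the highest kept. A ratio against a value under the floor was taken against the floor and is a lower bound, given as at least that fold. No ratio is given where both values lay under it. No lineage has a replicate array, so no test was made and every difference describes these 3 arrays. As a measure of technical scatter only, the SD of log2 ratios among probe sets that share a gene was 0.48 (785 gene and array pair combinations). The deposited values also carry a shift between arrays. For the 1186 genes that exceeded it everywhere, the median log2 ratio was 0.64 for parietal over zymogenic, 0.29 for parietal over pit and -0.21 for zymogenic over pit.

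The collections were checked by their markers. Atp4b, which codes for the beta chain of the acid pump, had 4402 in parietal cells, 793 in zymogenic cells and 102 in pit cells. Of 13 parietal markers on the array, 6 exceeded the floor, and 3 of these were at least 2-fold higher in parietal cells than in both other lineages. Atp4a, the alpha chain of the pump, had 214 in parietal cells, 261 in zymogenic cells and 12.5 in pit cells. Kcnq1, a potassium channel subunit, had 29.1 in parietal, 60.5 in zymogenic and 3.71 in pit cells, and Ezr (ezrin) had 142 in parietal, 13.2 in zymogenic and 171 in pit cells. Pgc, pepsinogen C, had 217 in parietal, 4593 in zymogenic and 9.88 in pit cells. The mucin Muc5ac had 425 in parietal, 14.5 in zymogenic and 1225 in pit cells. The parietal array therefore also held markers of pit and zymogenic cells, and the zymogenic array held markers of parietal cells. In such pools fewer cells of a type and less RNA per cell cannot be told apart. The summed level of 12 pit markers was 20645 in parietal cells, 241 in zymogenic cells and 15825 in pit cells. Most of the parietal and pit sums came from Gkn1 and Gkn2. Gkn1 had 10493 in parietal and 8307 in pit cells, and Gkn2 had 7987 in parietal and 2723 in pit cells. Of the 12, 4 were at least 2-fold higher in pit cells than in both other lineages, and 2 in parietal cells.

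Most probe sets of the class I genes read low. Of 26, 9 exceeded the floor on at least 1 array and 17 on none. By gene, 5 of 9 had a probe set above the floor (B2m, H2-D1, H2-K1, Tapbp and Psmb10), while Tap1, Tap2, Psmb8 and Psmb9 had none. By probe set, 8 were above the floor in parietal cells, 3 in zymogenic cells and 4 in pit cells. As for all other genes, the probe set with the highest mean intensity then stood for each gene. On that basis 4 of 9 were above the floor in parietal cells (B2m, H2-K1, Tapbp and Psmb10), where 15.4% of all genes were. On the zymogenic array there were 3 (B2m, H2-D1 and Tapbp), with 12.6% of all genes above the floor, and on the pit array 2 (H2-K1 and Tapbp), with 14.4%.

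**Figure D2:**
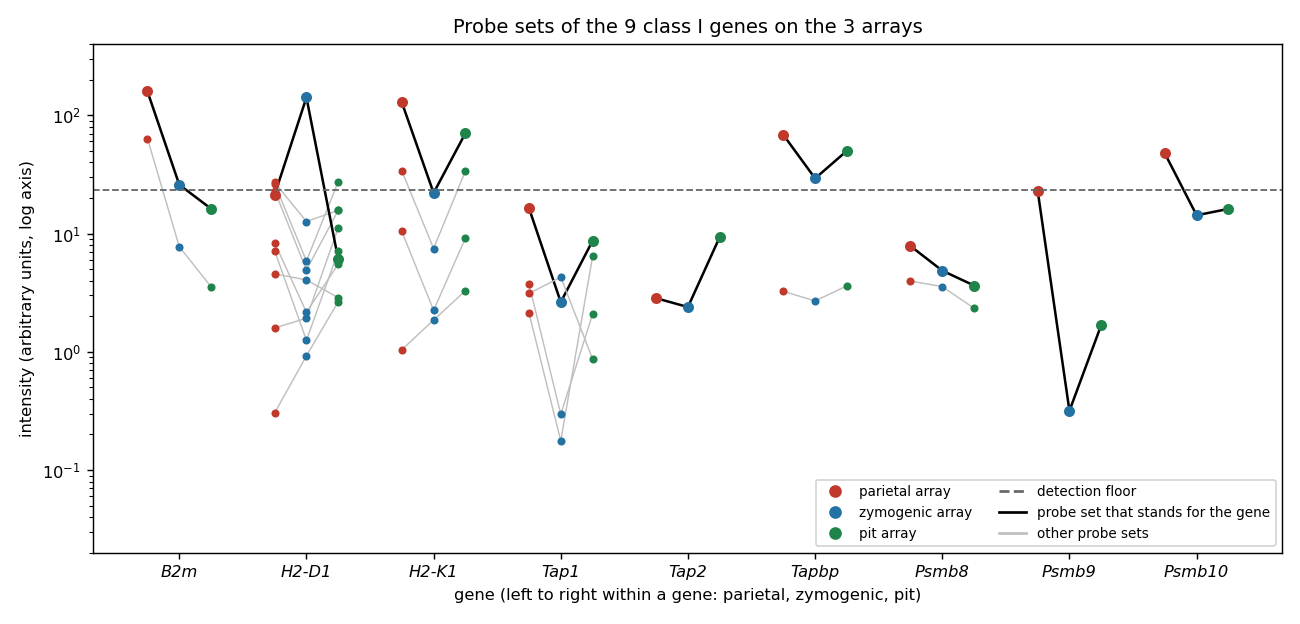
Intensity (log axis) of every probe set of the 9 class I genes on the parietal, zymogenic and pit arrays, from left to right within each gene. Black lines join the probe set that stands for the gene, grey lines the others, and the dashed line is the detection floor. B2m by its first probe set stands at 159 in parietal cells, 25.8 in zymogenic cells and 16.2 in pit cells, and 1 probe set of H2-D1 stands alone at 141 on the zymogenic array.

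B2m, the light chain shared by all class I molecules, was higher in parietal cells than in both other lineages by each of its probe sets. Its first probe set had 159 in parietal cells, 25.8 in zymogenic cells and 16.2 in pit cells. Its second had 63.5 in parietal cells, 7.74 in zymogenic cells and 3.54 in pit cells. The pit value was under the floor for both probe sets, and the zymogenic value for the second. By the first probe set, B2m was 6.14-fold higher on the parietal than on the zymogenic array (log2 ratio 2.62) and at least 6.82-fold higher than on the pit array (log2 ratio at least 2.77). The second probe set gave at least 2.73-fold for both. For zymogenic over pit the first probe set gives a bound of at least 1.11-fold only, and so does not settle the size of that difference. The parietal array also had the highest 3′ over 5′ ratio for both RNA quality controls (actin 26.1 and Gapdh 8.84), and the part of RNA quality in the parietal values was not tested. B2m remained at least 2-fold higher in parietal cells than in both other lineages with each of the 3 other scalings tried. Its log2 ratios were 2.13 over zymogenic and at least 2.31 over pit after quantile normalization. They were 1.97 and at least 2.13 once the arrays were brought to 1 median of the genes above the floor on all 3 arrays. When scaled to the BioB and BioC hybridisation controls they were at least 3.82 for both, since the zymogenic and pit values then both lay under the floor.

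H2-K1, a classical heavy chain that binds the peptide, was highest on the parietal and lowest on the zymogenic array. Its brightest probe set had 128 in parietal cells, 22.01 in zymogenic cells and 70.4 in pit cells. A further one had 33.8 in parietal cells, 7.46 in zymogenic cells and 33.8 in pit cells. Both lay under the floor on the zymogenic array and above it on the other arrays. The brightest probe set was at least 5.52-fold higher on the parietal than on the zymogenic array and 1.82-fold higher than on the pit array, and the zymogenic value was at least 3.03-fold lower than that of the pit array. The further probe set gave at least 1.45-fold for parietal over zymogenic and 1.001-fold for parietal over pit, so that parietal and pit cells were not separated by it. The remaining H2-K1 probe sets were under the floor on all arrays, at 1.04 to 10.4. Unlike B2m, H2-K1 was thus well above the floor in the pit pool by its brightest probe set. All 4 H2-K1 probe sets have names that mark probes shared with other sequences, so other heavy chains can add to these values. Setting the levels of the light and heavy chain against each other is not possible from probe intensities, but their parietal over pit ratios were at least 6.82-fold for B2m and 1.82-fold for H2-K1.

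H2-D1, the other classical heavy chain, gave no single order of the arrays. It has 9 probe sets, and 3 of them exceeded the floor somewhere. The brightest had 21.3 in parietal cells, 141 in zymogenic cells and 6.05 in pit cells. A second had 26.4 in parietal cells, 5.86 in zymogenic cells and 27.4 in pit cells. The other had 27.0 in parietal cells, 12.6 in zymogenic cells and 15.7 in pit cells. The first therefore placed H2-D1 at least 6.08-fold higher in zymogenic cells than in either other lineage, whereas the others were under the floor there. Of their parietal and pit values, 3 were at most 1.18-fold above the floor and the pit value of 15.7 was under it. With H2-D1 represented by the next brightest probe set, an alternative chosen after the values were seen, the log2 ratio of parietal over zymogenic was 0.18 in place of -2.60, and that of zymogenic over pit was -0.24 in place of 2.60. Of the 13 probe sets of H2-K1 and H2-D1, 11 have names that mark probes shared with other sequences, so that signal from one class I heavy chain can appear under another. The levels of H2-D1 and of H2-K1 are uncertain for that reason.

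The peptide loading step was seen through tapasin alone. Tapbp, which holds the empty class I molecule next to the transporter, had 68.3 in parietal cells, 29.2 in zymogenic cells and 50.03 in pit cells. It was the only one of the 9 whose representative was above the floor on all 3 arrays. Parietal was 2.34-fold above zymogenic and 1.36-fold above pit, and the ratio to the pit array (0.45 on the log2 scale) was within the scatter between probe sets. The zymogenic over pit log2 ratio was -0.78. After quantile normalization the parietal log2 ratios were 0.72 over zymogenic and 0.19 over pit, and with 1 median 0.58 and 0.021, so that the ratio to the zymogenic array no longer reached 2-fold. The second Tapbp probe set was at 2.69 to 3.61 on all arrays.

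Tap1 and Tap2, which together form the peptide transporter, were not measurable. The brightest of 4 Tap1 probe sets had 16.4 in parietal cells, 2.63 in zymogenic cells and 8.67 in pit cells. The only Tap2 probe set had 2.84 in parietal cells, 2.39 in zymogenic cells and 9.34 in pit cells. All lay under the floor, and no order of the arrays is read from them.

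Among the immunoproteasome subunits, Psmb10 alone exceeded the floor. Psmb10, which takes the place of Psmb7, had 47.5 in parietal cells, 14.3 in zymogenic cells and 16.1 in pit cells, and so was at least 2.04-fold higher in parietal cells than in each other lineage. That bound was just past 2-fold. Its log2 value was at least 0.64 after quantile normalization and 0.39 with 1 median, under 2-fold in both, and 2.08 when scaled to the hybridisation controls. Psmb9, which takes the place of Psmb6, had 23.1 in parietal cells, just under the floor, with 0.32 in zymogenic cells and 1.68 in pit cells. With the floor at the 90th percentile (11.02) Psmb9 and Tap1 were above it on the parietal array, and 7 of 9 genes were measured in place of 5. Psmb8, which takes the place of Psmb5, had 7.83 in parietal cells, 4.85 in zymogenic cells and 3.63 in pit cells, and its other probe set was lower still.

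Of the constitutive counterparts, Psmb5 and Psmb6 were likewise highest in parietal cells, and Psmb7 was not. Psmb5 had 51.1 in parietal cells, 21.0 in zymogenic cells and 18.2 in pit cells, at least 2.20-fold higher in parietal cells than in both other lineages. Psmb6 had 75.4 in parietal cells, 27.4 in zymogenic cells and 39.0 in pit cells. Psmb7, the counterpart of Psmb10, was under the floor on all arrays, at 6.56 in parietal, 23.1 in zymogenic (just under it) and 1.28 in pit cells. The median log2 ratio of the 2 measured subunits was 1.30 for parietal over zymogenic and 1.04 for parietal over pit, beside 1.03 as the bound for Psmb10 in both. A higher parietal value was therefore seen for Psmb5, Psmb6 and Psmb10 in the deposited scale. With quantile normalization or 1 median, Psmb5, like Psmb10, was no longer 2-fold higher in parietal cells than in both other lineages. Of 9 genes for the proteasome activator and assembly factors on the array, Psme4 alone exceeded the floor, with 25.7 in parietal cells, 22.4 in zymogenic cells and 7.09 in pit cells.

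Counted over the measured class I genes, 2 of 5 (B2m and Psmb10) were at least 2-fold higher in parietal cells than in both other lineages, where 7.49% of the 4137 genes above the floor on at least 1 array were. One, H2-D1 by its single probe set, was higher on the zymogenic array, where 6.91% of genes were, and 0 were higher on the pit array, where 5.78% were. H2-K1 was at least 2-fold lower in zymogenic cells than in both other lineages, as were 11.1% of genes. With so few genes measured, these counts describe the genes named and no more.

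Between pairs of arrays, 4 of 5 measured members (B2m, H2-K1, Tapbp and Psmb10) were at least 2-fold higher for parietal over zymogenic, where 24% of 3596 genes were, and H2-D1 was lower, as were 8.79%. With quantile normalization the split was 2 higher and 1 lower. The median log2 ratio of the members was 1.22, beside 0.29 over all genes measured. For parietal over pit, 2 of 4 (B2m and Psmb10) were higher, against 14.4% of 3441 genes, and 0 were lower, against 7.7%, with a median of 0.95 beside 0.084. For zymogenic over pit, H2-D1 was higher, as were 11.8% of 3623 genes, and H2-K1 lower, as were 21.3%, with a median of -0.31 beside -0.13. These medians include lower bounds.

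**Figure D3:**
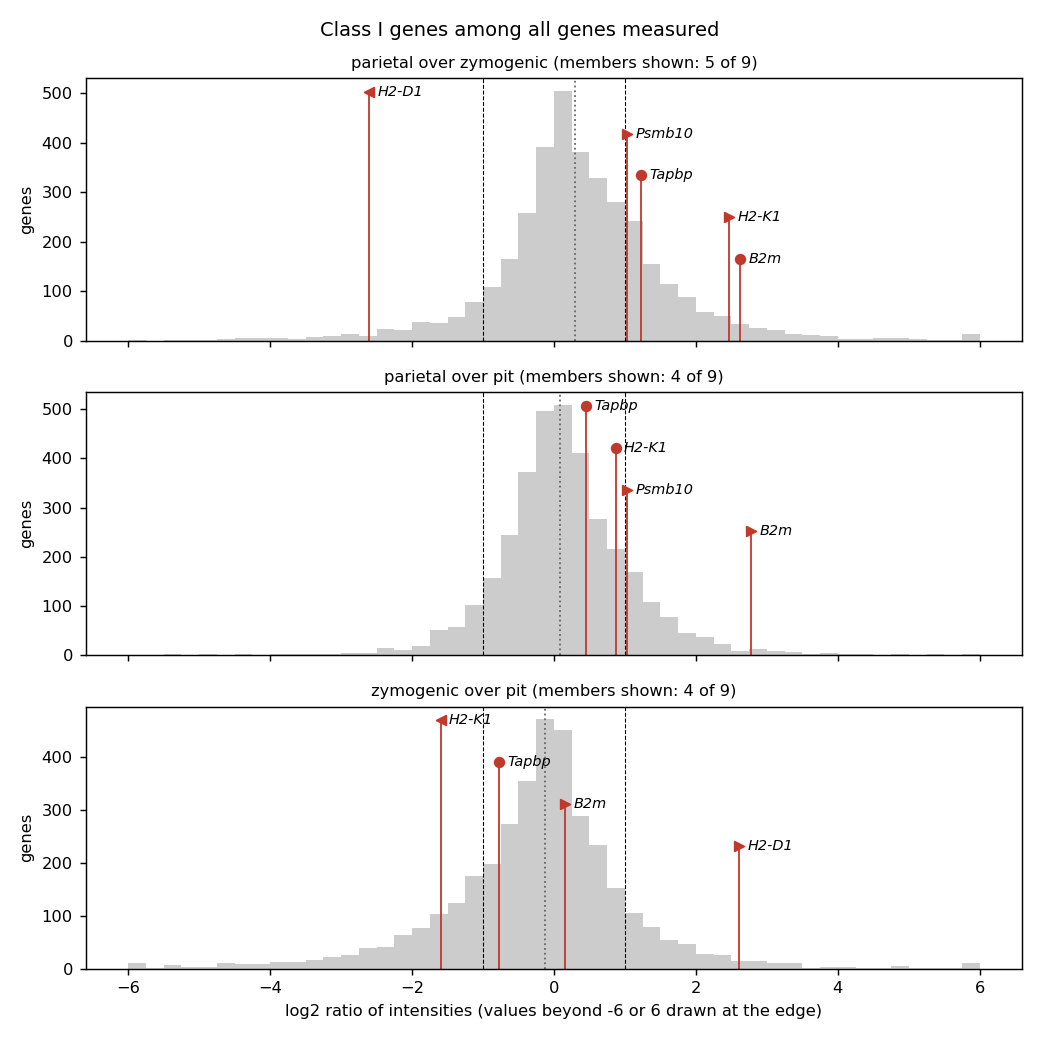
Log2 ratios of all measured genes (grey histograms, number of genes on the vertical axis) for the 3 pairs of arrays, with the measured class I genes in red. Circles are measured ratios, triangles are bounds pointing away from 0, dashed lines mark 2-fold and the dotted line is the median of all genes. B2m lies at 2.62 and 2.77 in the parietal ratios, and H2-D1 by its brightest probe set lies on the opposite side at -2.60.

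Other measured genes of the lists for building or loading class I molecules had no member at least 2-fold higher in parietal cells than in both other lineages. Of 16 loading and trimming genes, 15 are on the array and 7 exceeded the floor, and 0 of the 7 passed that threshold. Pdia3, Erap1 and Tapbpl were under the floor on all arrays, so that the counts and medians of this list do not cover them. Calreticulin (Calr), a chaperone of the loading complex, had 131 in parietal cells, 146 in zymogenic cells and 221 in pit cells. Calnexin (Canx), which folds new heavy chains, had 209 in parietal cells, 131 in zymogenic cells and 138 in pit cells. The median log2 ratio was -0.15 for parietal over zymogenic and -0.041 for parietal over pit, and with the BioB and BioC controls these were 1.03 and 0.71. Of the 7, 3 were set apart on 1 array. Hspa5 had 268 in parietal cells, 297 in zymogenic cells and 119 in pit cells, and the translocon subunit Sec61b had 146 in parietal cells, 167 in zymogenic cells and 61.5 in pit cells. Bcap31 had 75.9 in parietal cells, 24.8 in zymogenic cells and 87.9 in pit cells. Of 20 other class I and class I-like heavy chains, 11 are on the array as single genes, and H2-Q10 alone exceeded the floor, at 23.7 on the zymogenic array, with 17.9 in parietal and 14.2 in pit cells.

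The measured genes of MHC class II, which presents peptides from engulfed material, were mostly highest in parietal cells. Of 12, 11 are on the array and 5 exceeded the floor. Among those under it, H2-Ab1 had 3.16 in parietal cells, 8.20 in zymogenic cells and 9.31 in pit cells by its brightest probe set. Ciita had 7.58 in parietal cells, 17.1 in zymogenic cells and 2.63 in pit cells by its brightest. H2-Aa, the alpha chain of a class II molecule, had 186 in parietal cells, 84.2 in zymogenic cells and 45.9 in pit cells by its brightest probe set. Another had 107 in parietal cells, 68.1 in zymogenic cells and 40.5 in pit cells, and the rest were under the floor on all arrays. Cd74, the invariant chain that guards the class II groove, had 166 in parietal cells, 119 in zymogenic cells and 63.1 in pit cells. H2-Eb1 had 36.4 in parietal cells, 21.5 in zymogenic cells and 2.33 in pit cells, and the protease Ctss had 39.1 in parietal cells, 12.5 in zymogenic cells and 4.58 in pit cells. Ifi30, a thiol reductase of endosomes, was lowest in zymogenic cells, with 319 in parietal cells, 34.8 in zymogenic cells and 197 in pit cells. Only H2-Aa was at least 2-fold higher in parietal cells than in both other lineages, and with quantile normalization or 1 median 0 were. The median log2 ratio was 0.75 for parietal over zymogenic and 0.75 for parietal over pit, and with 1 median these were 0.11 and 0.27.

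Class II genes are known from professional antigen-presenting cells, and markers of those cells were examined beside them. Of 19 macrophage, dendritic and granulocyte markers, 4 were above the floor in parietal cells, 3 in zymogenic cells and 2 in pit cells, with summed levels of 276 in parietal cells, 577 in zymogenic cells and 156 in pit cells. By its brightest probe set Csf1r had 111 in parietal cells, 374 in zymogenic cells and 22.4 in pit cells, and this value carries most of the zymogenic sum. Its other probe sets had 20.4 in parietal cells, 18.5 in zymogenic cells and 13.4 in pit cells, and 8.38 in parietal cells, 28.2 in zymogenic cells and 8.24 in pit cells. Flt3 was also highest in zymogenic cells, with 6.19 in parietal cells, 76.7 in zymogenic cells and 5.36 in pit cells. The other markers above the floor were lower in zymogenic than in parietal cells by their brightest probe sets. Adgre1 had 33.6 in parietal cells, 5.83 in zymogenic cells and 34.1 in pit cells. C1qb had 33.8 in parietal cells, 23.8 in zymogenic cells and 30.4 in pit cells. A further C1qb probe set had 25.8 in parietal cells, 28.5 in zymogenic cells and 5.36 in pit cells. Lyz2 had 25.1 in parietal cells, 14.2 in zymogenic cells and 11.02 in pit cells. Cd68, Itgam, Itgax, Tyrobp and Fcer1g were under the floor on all arrays. Of 18 T and NK cell markers, 0 were above the floor in parietal cells, 2 in zymogenic cells and 1 in pit cells, with sums of 119 in parietal, 144 in zymogenic and 124 in pit cells. Ptprc, carried by all white blood cells, had 3.04 in parietal cells, 23.7 in zymogenic cells and 2.81 in pit cells. Of 9 B and plasma cell markers, Cd79a alone exceeded the floor, with 0.45 in parietal cells, 48.8 in zymogenic cells and 4.99 in pit cells, and the list summed to 48.2 in parietal, 110 in zymogenic and 59.3 in pit cells. The part of white blood cell RNA in the class I and class II values was not tested, and most of these markers were under the floor. The 10 endothelial markers summed to 97.6 in parietal cells, 89.1 in zymogenic cells and 82.6 in pit cells. Plvap alone of these exceeded the floor, with 39.8 in parietal cells, 44.1 in zymogenic cells and 15.9 in pit cells. The 12 fibroblast and smooth muscle markers summed to 448 in parietal cells, 352 in zymogenic cells and 213 in pit cells. Among them Col1a2 had 125 in parietal cells, 61.7 in zymogenic cells and 25.6 in pit cells. Col3a1 had 103 in parietal cells, 39.4 in zymogenic cells and 19.8 in pit cells. Acta2 and Des were highest in zymogenic cells instead. Acta2 had 83.3 in parietal cells, 146 in zymogenic cells and 83.8 in pit cells. Des had 18.8 in parietal cells, 31.8 in zymogenic cells and 15.5 in pit cells. The part of stromal RNA in the class I and class II values was not tested.

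Of 20 regulators of class I genes, 18 are on the array and 6 exceeded the floor. Irf7, which switches on type I interferon genes, had 762 in parietal cells, 21.6 in zymogenic cells and 41.1 in pit cells, 18.5-fold above the pit array. Irf1, which binds class I promoters, had 44.9 in parietal cells, 24.8 in zymogenic cells and 52.2 in pit cells and so did not share that order. Nlrc5, the main class I transactivator, was under the floor everywhere, at 6.29 in parietal cells, 1.83 in zymogenic cells and 6.21 in pit cells. Usf2 had 3.54 in parietal cells, 70.6 in zymogenic cells and 5.22 in pit cells by its brightest probe set. Its other probe set was under the floor, with 9.95 in parietal cells, 17.9 in zymogenic cells and 6.04 in pit cells.

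Genes that interferons induce outside antigen presentation were often higher in parietal cells. Of 49 on the list, 44 are on the array and 20 exceeded the floor, and 14 of the 20 were at least 2-fold higher in parietal cells than in both other lineages. All 20 were above the floor in parietal cells, 6 in zymogenic cells and 9 in pit cells. Some of the 14, such as Igtp, thus entered through the parietal array alone, which favours a high parietal count. The background for that count is the 7.49% given above. Oas1a, an antiviral oligoadenylate synthetase, had 539 in parietal cells, 37.9 in zymogenic cells and 59.4 in pit cells. Igtp, an interferon-gamma-induced GTPase, had 208 in parietal cells, 21.3 in zymogenic cells and 6.17 in pit cells. Ifi27 had 426 in parietal cells, 226 in zymogenic cells and 19.0 in pit cells, under 2-fold for parietal over zymogenic. Oasl1 had 178 in parietal cells, 1.91 in zymogenic cells and 178 in pit cells, and Trim25 had 298 in parietal cells, 40.9 in zymogenic cells and 334 in pit cells. Oasl1 and Trim25 were thus, like H2-K1, low in zymogenic cells alone. The median log2 ratio of the list was 2.13 for parietal over zymogenic and 2.05 for parietal over pit. The count stood at 11 both after quantile normalization and with 1 median, with 3.34% and 2.94% of all genes past the threshold, and at 20 when scaled to the hybridisation controls, where 31.2% of all genes were. The list was drawn up with earlier results of these arrays known and is no independent evidence of a direction.

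**Figure D4:**
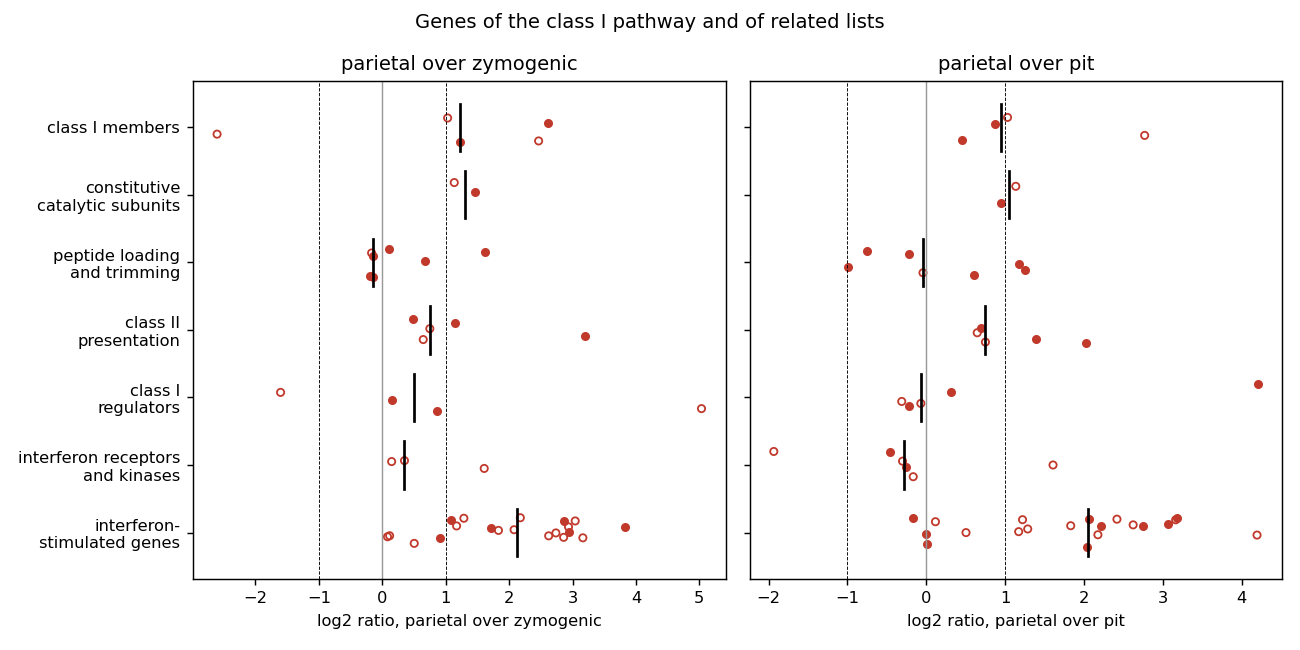
Log2 ratios of parietal over zymogenic (left) and parietal over pit (right) for the measured genes of the class I pathway and related lists, 1 point per gene. Filled points are measured ratios, open points are bounds, short black lines are list medians and dashed lines mark 2-fold. The medians of interferon-stimulated genes (2.13 and 2.05) and of class I members (1.22 and 0.95) lie to the right of 0, and those of peptide loading genes (-0.15 and -0.041) at it.

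The genes whose pattern over the 3 arrays was most like that of B2m were found among 1185 others above the floor on all of them, by the Euclidean distance between log2 values centred on their mean. B2m itself entered with its pit value raised to the floor. The nearest was Clu (clusterin, a secreted chaperone), at a distance of 0.14, with 2832 in parietal cells, 510 in zymogenic cells and 471 in pit cells. Then came the ribosomal protein genes Rpl7a, at 0.20, and Rps28, at 0.25. Ifi35, an interferon-induced protein, was at 0.25 with 414 in parietal cells, 53.8 in zymogenic cells and 49.4 in pit cells, and Agrn (agrin) at 0.33. With 3 arrays, 1185 candidates and a bound in the pattern, likeness of this kind arises easily and says nothing of shared control.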

How the data were processed

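The data are intensities on a linear scale for 45101 probe sets on 3 arrays, as the authors deposited them. How probes were summarised, background corrected and scaled is not given in the sources used here, and the main setting keeps the values unscaled. Per the labels, cells were laser-captured with a spot of 7.5 µm and RNA was pooled to 20 ng for amplification. Amplified RNA can lack 5′ ends, which lowers probe sets far from the 3′ end even of expressed genes. The 3′ over 5′ ratio of the actin control was 26.1 in parietal cells, 14.7 in zymogenic cells and 9.04 in pit cells, and that of the Gapdh control 8.84 in parietal cells, 3.88 in zymogenic cells and 6.66 in pit cells.

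Of the probe sets, 34958 name 1 gene in the platform's annotation, and 34754 of these were matched to RefSeq symbols through the gene identifier. The 932 that name several genes were left out, among them 3 that name a member beside another gene, with a highest value of 8.99. The probe set of highest mean stands for a gene. The 8 brightest list genes set apart at least 2-fold on 1 array, the members and the 5 genes nearest to B2m could be named. Of the list genes under that rule some are given by count alone, and other list genes are named as examples after their values were seen. The members, lists and thresholds were chosen with earlier results of these data known. Calculations used Python 3.11.15, numpy 2.4.6, pandas 2.3.3 and matplotlib 3.10.9, and were tested on simulated data. With 1 array per lineage no test was possible, and the number of arrays limits the precision. Alternatives were 3 other scalings, 3 other treatments of the floor, 2 other ways to represent a gene and 2 other thresholds.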

Additional observations from a re-analysis of the deposited data

Results flagged for a closer look

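A probe set annotated to several class I-like heavy chain genes, and for that reason used in no comparison, read above the detection floor on the parietal array. It had 73.8 in parietal cells, 18.7 in zymogenic cells and 10.8 in pit cells, so that the parietal value was at least 3.17-fold above the others. It was the only one of 9 probe sets naming several class I heavy chain genes to exceed the floor, and the genes that gave its signal are not settled.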

How the results depend on the processing

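The count of members at least 2-fold higher in parietal cells than in both other lineages was 2. It was 1 with quantile normalization, 1 median, the floor as a pseudocount, probe sets with plain names or a 4-fold threshold, and 5 with the BioB and BioC controls. The share of all genes past that threshold moved too, to 3.34% with quantile normalization, 2.94% with 1 median, 4.4% with the pseudocount, 6.26% with plain probe sets, 1.16% at 4-fold and 31.2% with the controls, against 7.49%. For parietal over zymogenic, the 4 higher members became 2 with quantile normalization, 1 median, the pseudocount, the mean over probe sets, plain probe sets or 4-fold. For parietal over pit, the 2 higher members became 1 with quantile normalization, 1 median, the pseudocount, plain probe sets or 4-fold, and 5 with the BioB and BioC controls. The single H2-D1 calls (higher in zymogenic cells than in both other lineages, lower for parietal over zymogenic, higher for zymogenic over pit) became 0 with the mean over probe sets, with plain probe sets, which drop its brightest, and with its next probe set, where its log2 ratios reversed to 0.18 and -0.24. The H2-K1 call, lower for zymogenic over pit, became 0 with the mean over probe sets or 4-fold, and the count was 2 with 1.5-fold. It was also 0 with plain probe sets, where H2-K1 was not represented. The median for parietal over zymogenic, 1.22, was 0.72 with quantile normalization, 0.58 with 1 median and 2.08 with the controls. That for parietal over pit, 0.95, was 0.41 with 1 median, 1.67 with the controls and 0.22 with the mean over probe sets. Scaling to the controls moved the median of genes on all arrays to 1.81 for parietal over zymogenic and 1.45 for parietal over pit, since BioB and BioC averaged 299.8 on the parietal array against 700.3 in zymogenic and 700.6 in pit cells. With the floor at the 99th percentile (949.8) all counts were 0, as 0 members exceeded it, and no medians could be taken. Of the remaining values of these counts and medians, 79 stayed within 1.5 times (counts) or within 0.48 on the log2 scale (medians). Of the values for single members and related lists, 241 stayed so and 93 moved further. Among 95 log2 ratios of single members, 16 lost and 2 gained the 2-fold call and 2 changed sign, both of H2-D1. Among 129 list medians, 7 lost and 9 gained it and 15 changed sign, none of them 2-fold as deposited. For parietal over zymogenic, the regulators' median of 0.51 became -0.14 with 1 median and -0.72 with plain probe sets, and that of the ubiquitin-like modifiers, -0.11, became 1.46 with the controls. No paired analysis was possible because each lineage has 1 array. Signal close to the floor limits Tap1, Tap2, Psmb8 and Psmb9, for which no difference was detectable.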

Other observations

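The interferon receptors and the kinases and inhibitors that act after them were mostly dim. Of 13 genes, 6 exceeded the floor, 1 was at least 2-fold higher in parietal cells than in both other lineages and 1 on the pit array. Usp18, a protease that damps interferon signalling, had 70.9 in parietal cells, 9.93 in zymogenic cells and 4.70 in pit cells. Socs3, an inhibitor of cytokine signalling, had 17.6 in parietal cells, 5.57 in zymogenic cells and 88.9 in pit cells. The kinase Jak2 had 29.7 in parietal cells, 8.83 in zymogenic cells and 40.7 in pit cells. The receptor chain Ifngr2 had 15.9 in parietal cells, 2.99 in zymogenic cells and 26.1 in pit cells. Usp18 was thus above the floor in parietal cells alone. By their brightest probe sets the signalling genes Socs3, Jak2 and Ifngr2 were highest on the pit array.

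Of 6 inhibitory and stress ligands on the array, 0 exceeded the floor, among them Cd274 (PD-L1), with 6.66 in parietal cells, 16.9 in zymogenic cells and 0.55 in pit cells. Of 2 ubiquitin-like modifier genes measured as single genes, Uba7, the activating enzyme for Isg15, had 8.68 in parietal cells, 25.1 in zymogenic cells and 43.4 in pit cells by its brightest probe set. Its other probe set above the floor had 30.9 in parietal cells, 7.14 in zymogenic cells and 21.5 in pit cells, so that its probe sets disagree. The 10 endocrine markers summed to 60.1 in parietal cells, 987 in zymogenic cells and 82.0 in pit cells.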
